A study of Mus musculus with 8 samples.

Results

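Long noncoding RNAs (lncRNAs) are transcripts of gene length that encode no known protein. The set described here holds the abundant autosomal lncRNAs of mouse T cell acute lymphoblastic leukaemia (T-ALL) blasts. It was formed from the deposited table of 20888 genes by taking every row typed as lncRNA on chromosomes 1 to 19 with a mean of at least 20 CPM (read counts scaled to a common total per library) over all 8 libraries. Of 2572 autosomal lncRNA rows, 126 met this rule, after BC018473 and Gm20559 had been left out by the same rule. The lncRNAs were chosen by their mean level over all libraries of both groups, so their abundance is a description and was not tested.

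The study sorted T-ALL cells from the peripheral blood of mice and asked which genes change expression when Kdm6b, which encodes a demethylase of lysine 27 on histone H3, is mutated. The KO group had 4 libraries labelled Kdm6b homozygous mutant, and the control group had 4 libraries labelled Kdm6b wild type. Both groups carry Vav-CRE, a recombinase driven by a promoter active throughout blood-forming cells, so a mutation made with it is not limited to T cells. The labels give neither the age of the mice nor whether replicates came from separate mice, and p-values then measure only the spread between these libraries. Library names share a number within each group that differs between the groups, and the labels do not say what it stands for. Any source shared within a group cannot be told apart from genotype.

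Abundant lncRNAs fall into a few well-studied classes. Some, such as Malat1 and Neat1, stay in the nucleus and form part of nuclear bodies. Others are hosts: their introns hold small nucleolar RNAs (snoRNAs), which guide chemical modification of ribosomal RNA, or microRNA (miRNA) hairpins, while the spliced host is often short-lived. Another class lies beside, inside or opposite a protein-coding gene, and several such RNAs mark active regulatory DNA. Many others carry only a catalogue symbol.

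The mature miRNAs with names ending in 5p from the miR-181a-1 and miR-15a loci are shown first because the results on their hosts refer to them. Hairpins inside 2610307P16Rik, Gm17494 and Snhg20 are not shown. Seeds, bases 2 to 8, are in capitals, and the sequences are those of RefSeq on GRCm38.p6. The first pair lies in the locus of Gm4258 and Mir181a-1hg on chromosome 1, and the second pair lies within Dleu2 on chromosome 14.
mmu-miR-181a-5p, chr1:137966468-137966490, plus strand: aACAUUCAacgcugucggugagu
mmu-miR-181b-5p, chr1:137966650-137966673, plus strand: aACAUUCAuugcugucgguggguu
mmu-miR-15a-5p, chr14:61632075-61632096, minus strand: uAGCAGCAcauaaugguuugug
mmu-miR-16-5p, chr14:61631936-61631957, minus strand: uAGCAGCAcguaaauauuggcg
Both printed miRNAs of the chromosome 1 locus share the seed ACAUUCA, and both of the chromosome 14 locus share AGCAGCA. The 3p miRNAs of the same hairpins have other seeds and are not printed. Levels of the mature miRNAs were not analysed here.

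Hosts of snoRNAs commonly begin transcription in a run of C and T letters, as ribosomal protein genes do. The windows below run from 30 bases before to 30 bases after the RefSeq start of 4 host lncRNAs, chosen after their sequences had been read because each holds a run of C and T near that start. Capitals mark the run, which spans the RefSeq start in Snhg8 and 2410006H16Rik and begins a few bases downstream of it in Snhg5 and Snhg1.
Snhg5, chr9:88522868-88522927, minus strand: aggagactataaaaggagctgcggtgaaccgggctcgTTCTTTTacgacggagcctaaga
Snhg1, chr19:8723457-8723516, plus strand: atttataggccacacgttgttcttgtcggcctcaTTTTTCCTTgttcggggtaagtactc
Snhg8, chr3:123508307-123508366, minus strand: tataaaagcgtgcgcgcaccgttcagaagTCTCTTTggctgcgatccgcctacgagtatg
2410006H16Rik, chr11:62602847-62602906, plus strand: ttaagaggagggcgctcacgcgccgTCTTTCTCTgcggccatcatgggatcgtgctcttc
Runs of at least 7 letters near the start, as in Snhg5 and Snhg8, occur in 14.4% of all 32851 RefSeq promoter windows. Runs of at least 9 letters, as in Snhg1 and 2410006H16Rik, occur in 5.96%.

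A library's depth, estimated from the value that 1 read takes, was 14020000 to 18240000 reads in the KO-labelled libraries and 18260000 to 22070000 reads in the controls. Kdm6b, summed over all its exons, was at 587 ± 92.2 CPM in the KO-labelled libraries and 514 ± 135 CPM in the controls (SD, n = 4 each). The labels do not say which exons were altered, so this level does not check the genotype, and every direction below rests on the labels. Xist was at 386 ± 85.2 CPM in the KO-labelled libraries and 0.325 ± 0.381 CPM in the controls. The Y-linked Ddx3y was at 0.221 ± 0.220 CPM in the KO-labelled libraries and 168 ± 34.7 CPM in the controls. Sex and genotype cannot be told apart in these libraries. T cell markers, 12 genes in all, summed to 19564 to 23356 CPM in the KO-labelled libraries and 17205 to 22205 CPM in the controls. B cell markers, 5 genes in all, summed to 825 to 871 CPM in the KO-labelled libraries and 643 to 811 CPM in the controls. Nearly all of this sum was Ighm, at 809 to 852 CPM in the KO-labelled libraries and 630 to 799 CPM in the controls, while Cd79b was at 10.9 to 18.6 CPM over all libraries and Ms4a1 was under 0.5 CPM in each. Summed neutrophil markers were at 22.0 to 119 CPM in the KO-labelled libraries and 15.2 to 28.0 CPM in the controls. Their members differed in direction. S100a8 averaged 38.5 CPM in the KO-labelled libraries and 10.7 CPM in the controls, and S100a9 20.2 and 4.79 CPM. Elane averaged 1.51 CPM in the KO-labelled libraries and 2.99 CPM in the controls, and Mpo 1.05 and 3.90 CPM. Natural killer cell markers summed to 37.7 to 173 CPM in the KO-labelled libraries and 16.6 to 60.3 CPM in the controls. Most of this sum was Nkg7, while Ncr1 averaged 1.14 and 1.25 CPM. Monocyte markers were at 36.7 to 97.4 CPM in the KO-labelled libraries and 53.3 to 223 CPM in the controls. Erythroid markers were at 159 to 932 CPM in the KO-labelled libraries and 58.5 to 1225 CPM in the controls. The immediate early gene Fos, which handling of cells can induce, was at 15.4 to 105 CPM in the KO-labelled libraries and 3.98 to 5.97 CPM in the controls. The part of these differences in the results on lncRNAs was not tested.

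Levels among the 126 lncRNAs were very uneven. Their median level was 43.2 CPM, and the range ran from 20.9 CPM for Gm26510 to 8408 CPM for Malat1. Levels of at least 100 CPM were reached by 33 lncRNAs, at least 200 CPM by 12 and at least 1000 CPM by 3, which were Malat1, AY036118 and Gm26917. The lowest inside the threshold were Gm26510 at 20.9 CPM, 2610035D17Rik at 21.1 CPM and 5031425E22Rik at 21.2 CPM. Just outside were 2900076A07Rik at 19.7 CPM, Gm43063 at 19.6 CPM and Gm20300 at 19.4 CPM. All 126 also passed the filter on low values used for testing.

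By symbol, 119 of the 126 lncRNAs were found in the GENCODE vM21 annotation of GRCm38. Among these, 41 were typed there as processed transcript, 39 as lincRNA, 25 as antisense, 7 as sense intronic and 5 as bidirectional promoter lncRNA. AW011738 is typed there as protein-coding and Gm22146 as a small miscellaneous RNA, against the lncRNA type of the deposited table. Exon length had a median of 2969 bases and ran from 288 bases for Gm22146 to 93092 bases for Kcnq1ot1. An exon overlapped a gene on the opposite strand in 56 lncRNAs, and on the same strand in 28. The strand setting of the counting is not given in the sources used here, so reads of such pairs cannot be told apart.

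Per kilobase of exon, the order of the levels changed. AY036118 had 3364 CPM per kb averaged over the 8 libraries, Malat1 1204, Gm26917 587, Gm10076 471 and Gm22146 407 CPM per kb. Gm15340, Gm42418, Gm15513, Gm28942 and Gm4258 followed, with 253, 159, 122, 117 and 117 CPM per kb. Kcnq1ot1, the imprinted antisense RNA of the Kcnq1 locus, had 2.01 CPM per kb despite a mean of 187 CPM, since its annotated exon sequence is long. Neat1, the scaffold of paraspeckles, had 7.37 CPM per kb.

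Between the groups, 10 of the 126 lncRNAs changed at an adjusted p below 0.05 (limma on log2(CPM + 1), Benjamini-Hochberg adjustment over all 13840 tested genes), which is 7.94%. Over all tested genes the share was 3.53%, over the less abundant autosomal lncRNAs 2.93%, and over autosomal protein-coding genes of at least 20 CPM 3.81%. Of the 10, 3 lncRNAs were higher in the KO-labelled libraries, where the share over all genes was 1.21%, and 7 were lower, where it was 2.32%. An unadjusted p below 0.05 was reached by 30 lncRNAs, 23.8%, against 19.3% of all tested genes. A lncRNA that is high in 1 group can meet the rule on the mean through that group: 6 of the 10, namely Gm13568, Gm42047, Gm4316, Gm5532, Lockd and Mir181a-1hg, averaged under 20 CPM in one of the groups. Among the 116 lncRNAs with at least 20 CPM in both groups, 4 changed, a share of 3.45%. The limit on both groups was not applied to the other genes, so this share is not strictly comparable with the 3.53% over all tested genes. The number past the test was 5 without KO replicate 1 (1.08% of all tested genes), 4 without KO replicate 2 (0.585%), 3 without control replicate 1 (0.694%), 5 without control replicate 3 (1.29%) and 17 without control replicate 4 (4.84%). In bulk RNA, fewer cells of a type and less RNA per cell cannot be told apart.

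**Figure D1:**
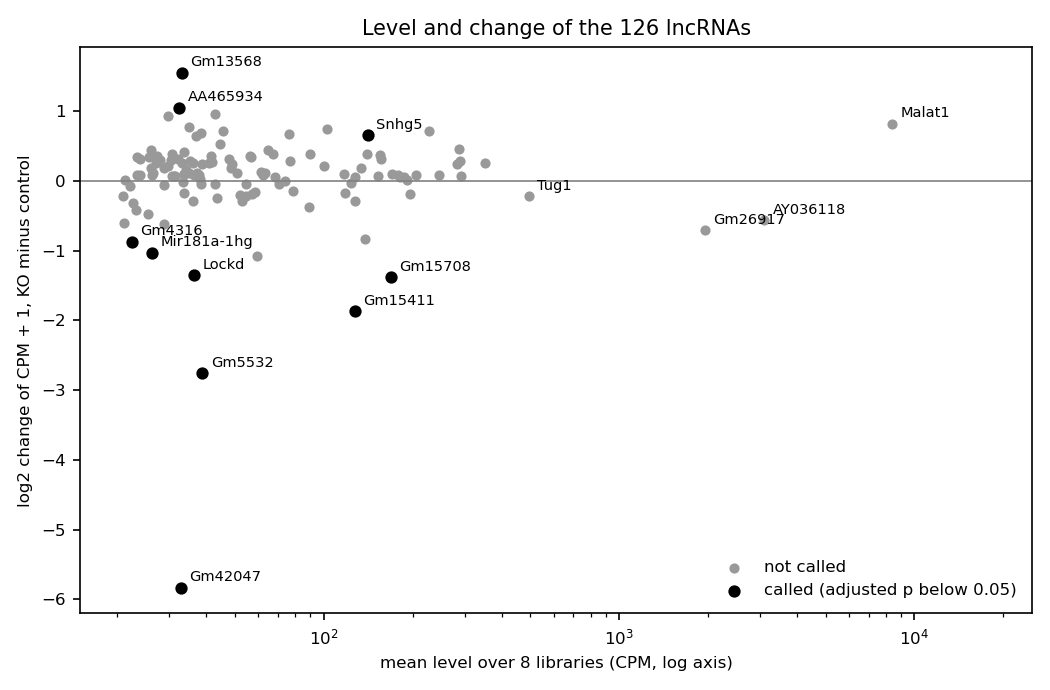
Log2 change of CPM + 1 (KO minus control, vertical axis) of each of the 126 lncRNAs against its mean level over 8 libraries (CPM, log axis). Black points are the 10 lncRNAs with an adjusted p below 0.05, of which Gm42047 lies at -5.83, and grey points are the other 116.

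Most log2 changes were small, with 99 of 126 between -0.5 and 0.5. The median log2 change was 0.10, with quartiles of -0.07 and 0.31, against a median of -0.03 over all tested genes. Log2 changes above 0 were seen for 86 lncRNAs, or 68.3%, against 45.2% of all tested genes, 56.8% of the 887 less abundant autosomal lncRNAs and 42.3% of the 6770 autosomal protein-coding genes of at least 20 CPM. Without control replicate 4 the median was 0.01 and 64 of the 126 were above 0. In 17 lncRNAs, 13.5%, the KO-labelled and control libraries did not overlap, against 13.2% of all tested genes. The KO-labelled libraries were above in 10 of these (5.23% of all genes) and below in 7 (7.97% of all genes).

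Gm42047, a lincRNA on the plus strand at chr8:121833247-121841178, showed the largest difference of the set. It was at 0.143 and 0.141 CPM in KO-labelled replicates 2 and 4 and at or next to 0 CPM in replicates 1 and 3, against 90.1, 42.1, 96.0 and 34.7 CPM in control replicates 1 to 4. These levels correspond to 2 reads in each of those KO-labelled libraries, and to between 766 and 1835 reads in each control library. Every KO-labelled library was thus below 3 reads, while all controls were far above. Summed over each group, 4 of 62660000 reads in the KO-labelled libraries compare with 5056 of 78670000 in the controls, which makes the KO level 0.0993% of the control level (exact 95% interval 0.0271 to 0.254%, counting error only). On the log2(CPM + 1) scale the change was -5.83 ± 0.31 (SE; limma adjusted p = 1.62e-06), a size that depends on the pseudocount and ran from -6.73 to -3.68 over the alternatives.

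Gm15411, a processed transcript on the minus strand at chr5:148995651-149015813, had 56.8, 47.3, 44.3 and 62.6 CPM in KO-labelled replicates 1 to 4, against 187, 270, 226 and 124 CPM in control replicates 1 to 4. The groups did not overlap, and control replicate 4 was the lowest control. Its log2 change came to -1.87 ± 0.21 (SE; limma adjusted p = 0.00136). Gm5532, a lincRNA on the minus strand at chr1:155520173-155527143, had 5.18, 10.6, 8.17 and 6.84 CPM in the KO-labelled libraries, against 66.3, 40.0, 24.5 and 149 CPM in the controls. The groups did not overlap, but the controls spread widely, with replicate 4 highest and replicate 3 lowest. The change was -2.75 ± 0.44 (SE; limma adjusted p = 0.0106). These 2 lncRNAs and Gm42047 kept an adjusted p below 0.05 under all 17 alternatives.

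Gm15708, annotated inside an intron of Bri3 at chr5:144277061-144280513, had 109, 133, 97.0 and 48.9 CPM in the KO-labelled libraries, against 233, 272, 226 and 231 CPM in the controls. All KO-labelled libraries were below all controls, with KO replicate 4 the lowest of the 8. The log2 change was -1.38 ± 0.25 (SE; limma adjusted p = 0.0163), and the adjusted p was 0.0589 without control replicate 1. Bri3 itself, which encodes a membrane protein, was at 2.76 ± 0.260 CPM in the KO-labelled libraries and 3.51 ± 0.483 CPM in the controls.

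The RefSeq promoter windows of Gm5532 and Gm15708, 250 bases before to 50 bases after the start, follow. They were chosen after the windows had been searched, since each holds 1 copy of TGGGAA, the core letters bound by RBPJ, the DNA-binding partner of NOTCH1 in T-ALL. Capitals mark that match, and 25.6% of all 32851 windows hold the same letters on either strand.
Gm5532, chr1:155527062-155527361, minus strand: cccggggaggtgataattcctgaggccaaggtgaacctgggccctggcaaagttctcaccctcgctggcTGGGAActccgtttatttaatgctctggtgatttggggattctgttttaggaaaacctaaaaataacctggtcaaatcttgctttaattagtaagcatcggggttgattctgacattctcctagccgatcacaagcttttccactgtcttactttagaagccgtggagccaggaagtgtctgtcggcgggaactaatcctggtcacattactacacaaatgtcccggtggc
Gm15708, chr5:144276811-144277110, plus strand: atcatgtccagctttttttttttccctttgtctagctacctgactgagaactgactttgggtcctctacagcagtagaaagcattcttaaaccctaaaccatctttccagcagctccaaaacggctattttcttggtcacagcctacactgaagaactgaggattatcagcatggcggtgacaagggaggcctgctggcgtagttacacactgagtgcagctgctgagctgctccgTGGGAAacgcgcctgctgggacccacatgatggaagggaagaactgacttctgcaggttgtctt
Promoter windows were available for 66 of the 126 lncRNAs, 87 windows in all. TGGGAA was in 23.0% of these windows, and in at least 1 window of 4 of the 7 changed lncRNAs that have one, namely Gm4316, Gm5532, Gm15708 and Gm15411, which has 8 windows. The E-box CACGTG was in 13.8% of the lncRNA windows and 7.15% of all windows. Windows of the same lncRNA were counted separately in these shares, and Gm15411 is among the lncRNAs with an E-box. TATAAA was in 12.6% of the lncRNA windows and 13.6% of all. The AP-1 letters TGACTCA or TGAGTCA were in 2.30% of the lncRNA windows and 5.20% of all, and the ETS letters CCGGAAGT in 2.30% of the lncRNA windows and 3.89% of all. The E2F letters TTTCCCGC or TTTGGCGC, of which the first shares TTCCC with the reverse complement of TGGGAA, were in 2.30% of the lncRNA windows and 1.56% of all. Each motif was searched on both strands. The heat shock element was in 0 lncRNA windows and 0.603% of all windows.

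Lockd lies downstream of Cdkn1b, the gene of the cell cycle inhibitor p27, on the same strand of chromosome 6 (chr6:134929092-134956798), and its locus acts as an enhancer of Cdkn1b in mouse erythroid cells. It had 17.0, 15.8, 23.7 and 21.8 CPM in the KO-labelled libraries, against 53.9, 31.3, 52.2 and 75.3 CPM in the controls. The groups did not overlap, and control replicate 4 was the highest. The fitted log2 change was -1.35 ± 0.24 (SE; limma adjusted p = 0.0157). It did not pass without KO replicate 1, KO replicate 2 or control replicate 1 (adjusted p up to 0.0663). Cdkn1b had 132, 177, 161 and 130 CPM in the KO-labelled libraries, against 329, 264, 198 and 153 CPM in the controls. These groups overlapped, and the log2 change of -0.60 ± 0.21 did not pass (SE; limma adjusted p = 0.149).

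Mir181a-1hg, the host transcript of miR-181a-1 and miR-181b-1, whose mature miR-181a tunes antigen receptor sensitivity in thymocytes, had 20.7, 14.9, 12.9 and 19.2 CPM in the KO-labelled libraries, against 44.5, 33.1, 37.8 and 27.1 CPM in the controls. All KO-labelled libraries lay below all controls. On the log2 scale the change was -1.03 ± 0.19 (SE; limma adjusted p = 0.0185), and it did not pass without KO replicate 2, control replicate 1 or control replicate 3 (adjusted p up to 0.0735). Gm4258, whose annotated span on the plus strand at chr1:137898595-138000384 spans both miR-181 sequences printed above, had 220, 170, 134 and 167 CPM in the KO-labelled libraries, against 208, 147, 214 and 96.2 CPM in the controls. These groups overlapped widely, and the log2 change was 0.10 ± 0.24 (SE; limma adjusted p = 0.857). By name and span, both symbols belong to the locus of miR-181a-1, and the difference between their changes was not tested.

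Gm4316, a lincRNA on the plus strand at chr8:123165255-123178765, had 15.2, 16.6, 16.5 and 13.4 CPM in the KO-labelled libraries, against 35.7, 22.6, 32.0 and 27.1 CPM in the controls. The groups were separate, and the KO-labelled libraries lay within 4 CPM of each other. The log2 change was -0.87 ± 0.17 (SE; limma adjusted p = 0.0213), and it did not pass without KO replicate 1, 2 or 4 or control replicate 1 or 3 (adjusted p up to 0.0816). Both Gm4316 and Gm42047 lie inside the long annotated gene Gm20388 on the same strand, which was at 55.5 ± 6.84 CPM in the KO-labelled libraries and 69.5 ± 6.53 CPM in the controls (log2 change -0.32, limma adjusted p = 0.194).

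The lncRNAs that were higher in the KO-labelled libraries were AA465934, Snhg5 and Gm13568. AA465934, at chr11:83291699-83294632 with Snord7 inside it, had 35.0, 39.1, 35.6 and 68.0 CPM in the KO-labelled libraries, against 19.5, 21.9, 15.8 and 24.1 CPM in the controls. The groups did not overlap, and KO replicate 4 stood above the other 3. The fitted log2 change was 1.05 ± 0.22 (SE; limma adjusted p = 0.0274), and it did not pass without KO replicate 1 or 2 or control replicate 1 or 3 (adjusted p up to 0.0863).

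Snhg5, the host of Snord50a and Snord50b at chr9:88521050-88522929, had 175, 170, 148 and 195 CPM in the KO-labelled libraries, against 96.5, 123, 91.6 and 126 CPM in the controls. All KO-labelled libraries exceeded all controls. The log2 change was 0.66 ± 0.14 (SE; limma adjusted p = 0.0276), and it did not pass without KO replicate 1, 2 or 4 or control replicate 1 or 3 (adjusted p up to 0.0971).

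Gm13568, at chr2:26457144-26458316, had 41.2, 48.8, 29.0 and 80.1 CPM in the KO-labelled libraries, against 18.4, 14.0, 8.16 and 25.1 CPM in the controls. The groups were separate, with KO replicate 4 highest of all 8 libraries. The log2 change was 1.55 ± 0.34 (SE; limma adjusted p = 0.0329), and it did not pass without KO replicate 1, 2 or 4 or control replicate 1, 2 or 3 (adjusted p up to 0.105). Of its 446 exon bases, 414 lie opposite exons of Notch1, the receptor whose activation drives most T-ALL, and their reads cannot be told apart in these values. Notch1 was at 854 ± 167 CPM in the KO-labelled libraries and 1047 ± 137 CPM in the controls (SD, n = 4 each, log2 change -0.31, limma adjusted p = 0.333). Gm13568 also lies inside 0610009E02Rik on the same strand and shares 93 exon bases with it. That lncRNA was at 102 ± 20.8 CPM in the KO-labelled libraries and 78.0 ± 15.4 CPM in the controls (log2 change 0.39, limma adjusted p = 0.258). The part of either gene in the level of Gm13568 was not tested.

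**Figure D2:**
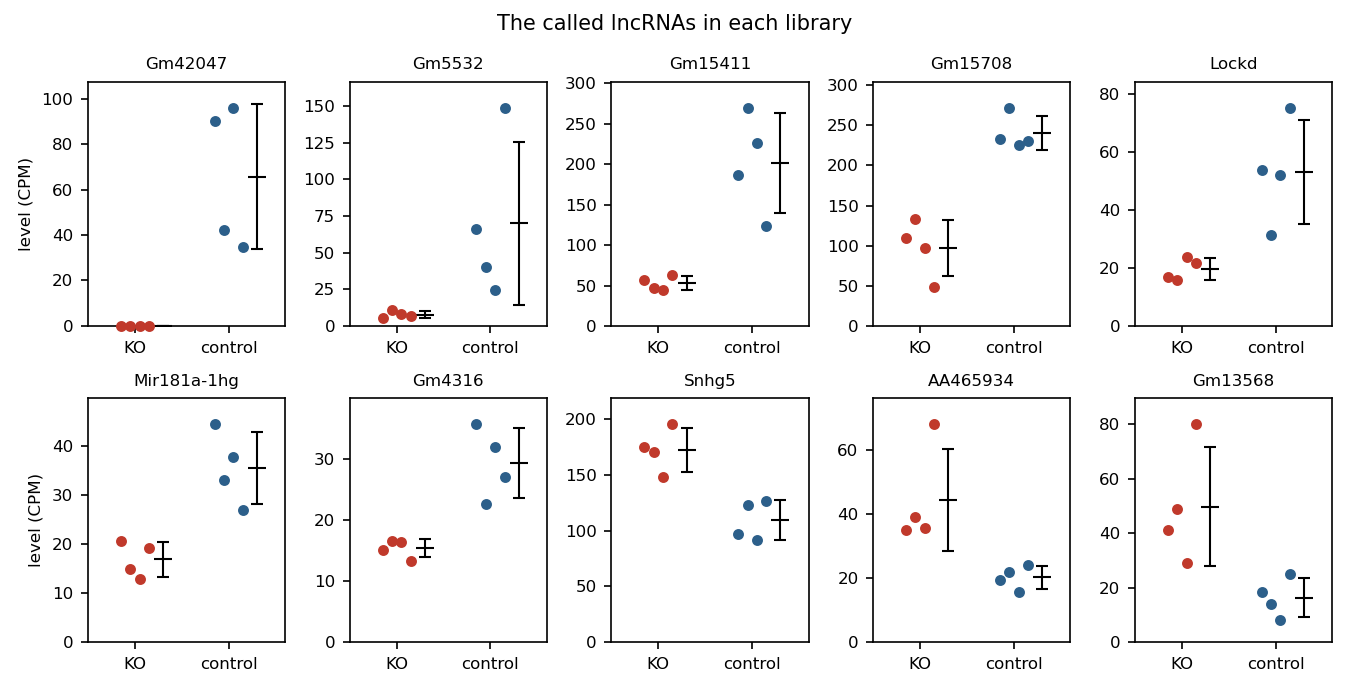
Level (CPM, vertical axes from 0) of the 10 lncRNAs with an adjusted p below 0.05 in each library, KO-labelled on the left and control on the right, replicates 1 to 4 from left to right. Black bars are the mean ± SD of 4 libraries, and the groups do not overlap in any of the 10 panels.

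In the authors' deposited table of 218 genes past their thresholds, 3 of these lncRNAs appear. It gives AA465934 a signed fold of -2.19, Lockd 2.72 and Mir181a-1hg 2.1, each as control over KO, so that the negative value means higher in KO.

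Summed over all 126, the lncRNAs made up 28733, 27886, 21047 and 22208 CPM in KO-labelled replicates 1 to 4, against 23497, 20184, 22905 and 18443 CPM in control replicates 1 to 4. The ranges overlapped. Malat1, a nuclear speckle RNA, accounted for 13043, 10776, 7572 and 11420 CPM in the KO-labelled libraries, against 7124, 5944, 7361 and 4024 CPM in the controls. Every KO-labelled library was above every control, KO replicate 3 by a small margin. The log2 change of 0.82 ± 0.26 did not pass (SE; limma adjusted p = 0.108, and 0.0740 to 0.391 over the alternatives). Gm37376, on the opposite strand, shares 453 exon bases with Malat1 and was at 6806 ± 1405 CPM in the KO-labelled libraries and 3721 ± 784 CPM in the controls, and reads of this pair cannot be told apart.

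AY036118, Gm26917 and Gm42418 are loci on chromosome 17 to which reads of ribosomal RNA can be assigned. In GENCODE, all 923 exon bases of AY036118 and 1822 of the 1831 of Gm42418 overlap the rRNA entry CT010467.1. These 3 loci summed to 6038, 7611, 4310 and 1189 CPM in the KO-labelled libraries, against 6812, 4380, 5959 and 6503 CPM in the controls. KO replicate 4 stood below the other 7 libraries. AY036118 had a log2 change of -0.56 ± 0.52 (SE; limma adjusted p = 0.603), which was 0.09 without KO replicate 4, and none of the 3 passed the limma test, also at an unadjusted p below 0.05.

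With Malat1 and these 3 loci set aside, the other 122 lncRNAs summed to 9652, 9499, 9164 and 9599 CPM in the KO-labelled libraries, against 9561, 9861, 9585 and 7916 CPM in the controls. The KO-labelled libraries lay inside the range of the controls, of which replicate 4 was the lowest. As a share of all reads, the 126 lncRNAs took 2.10 to 2.87% in the KO-labelled libraries and 1.84 to 2.35% in the controls.

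**Figure D3:**
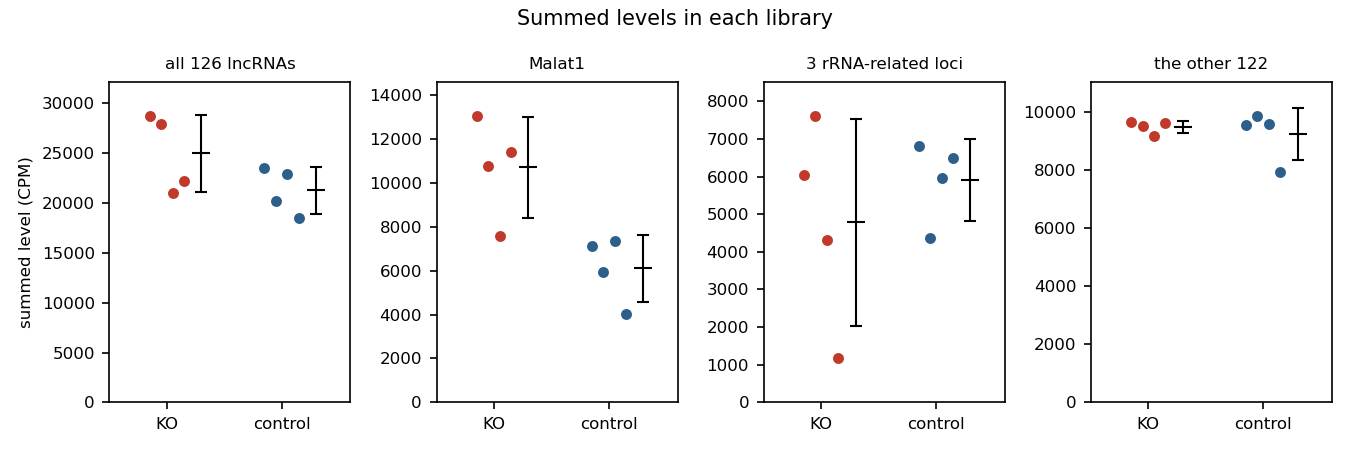
Summed level (CPM, vertical axes from 0) of all 126 lncRNAs, of Malat1, of the 3 rRNA-related loci and of the other 122 in each library, KO-labelled on the left and control on the right, replicates 1 to 4 from left to right, with the mean ± SD of 4 libraries in black. Malat1 does not overlap between the groups, while the other 122 lncRNAs sum to between 7916 and 9861 CPM in all libraries.

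Of the other nuclear lncRNAs in the set, none passed. Neat1 averaged 153 ± 9.54 CPM in the KO-labelled libraries and 153 ± 50.1 CPM in the controls (SD, n = 4 each). Its log2 change was 0.07 (limma adjusted p = 0.901; 95% interval of the change -0.43 to 0.57). Kcnq1ot1 averaged 190 ± 22.4 CPM in the KO-labelled libraries and 184 ± 19.6 CPM in the controls (log2 change 0.05, limma adjusted p = 0.878; interval -0.23 to 0.32). Tug1, a conserved RNA of nucleus and cytoplasm, averaged 459 ± 102 CPM in the KO-labelled libraries and 530 ± 76.2 CPM in the controls (log2 change -0.22, limma adjusted p = 0.530). Over the 14 paraspeckle proteins listed beside Neat1, the median log2 change was -0.07, and 4 were above 0. Of the 14, 4 had an unadjusted p below 0.05 by limma, against 19.3% of all tested genes. Sfpq was higher, at 182 ± 20.9 CPM in the KO-labelled libraries and 127 ± 8.56 CPM in the controls (log2 change 0.52, limma adjusted p = 0.0350). It did not pass under 7 of 17 alternatives. The other 13 did not pass, and of these Rbm14, Cpsf7 and Zc3h6 had an unadjusted p below 0.05, with log2 changes of -0.41, -0.27 and -0.56.

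The list of snoRNA hosts was the largest functional group, with 10 lncRNAs in the set. Among them, 1810026B05Rik has no snoRNA gene annotated inside it and shares 2628 exon bases with Chd2 on the same strand. The counts below include it. Of the 10, Snhg5 rose, and the other 9 did not pass the test. Log2 changes were above 0 in 9 of the 10, with a median of 0.24, against -0.03 over all tested genes. Over all 126 lncRNAs, 68.3% were above 0, with a median of 0.10. The count above 0 stayed at 9 under each scaling tried. It was 6 without KO replicate 4, 7 without control replicate 3, and 8 both with array weights and without control replicate 2. Their summed level was 882, 876, 846 and 1155 CPM in the KO-labelled libraries, against 676, 718, 628 and 997 CPM in the controls. Replicate 4 was the highest of its group on both sides, and the control replicate 4 lay above 3 of the KO-labelled libraries.

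Gas5, a host of many snoRNAs that accumulates in growth-arrested cells, had 286, 313, 305 and 407 CPM in the KO-labelled libraries, against 215, 211, 184 and 375 CPM in the controls. The overlap came from control replicate 4 alone. The fitted log2 change was 0.45 ± 0.21 (SE; limma adjusted p = 0.255), and without control replicate 4 it was 0.67 with an adjusted p of 0.0164. Snhg8, the host of Snora24, had 45.2, 50.6, 29.2 and 55.1 CPM in the KO-labelled libraries, against 25.8, 25.1, 20.2 and 43.9 CPM in the controls. Control replicate 4 again lay inside the KO-labelled range. On the log2 scale the change was 0.65 ± 0.25 (SE; limma adjusted p = 0.181), and 0.87 with an adjusted p of 0.0350 without that library.

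Among the remaining hosts, Snhg1, the host of Snord22 and 7 other annotated snoRNAs, had 37.1, 44.1, 39.1 and 55.4 CPM in the KO-labelled libraries, against 29.9, 32.8, 27.5 and 61.7 CPM in the controls (log2 change 0.26, limma adjusted p = 0.579). Zfas1 holds Snord12, starts 81 bases from the Znfx1 start and shares 82 exon bases with Znfx1 on the opposite strand. It averaged 68.3 ± 10.3 CPM in the KO-labelled libraries and 68.1 ± 27.6 CPM in the controls. The host 2410006H16Rik, which holds Snord49a, Snord49b and Snord65, averaged 47.0 ± 8.84 CPM in the KO-labelled libraries and 56.9 ± 25.7 CPM in the controls. In both cases control replicate 4 was far above the other controls, at 109 CPM for Zfas1 and 95.4 CPM for 2410006H16Rik. In the rest of the list, Snhg16, Snhg20, Snhg6 and 1810026B05Rik had log2 changes of 0.34, 0.21, 0.11 and 0.18 with overlapping groups. Over the 10 listed lncRNAs, KO replicate 4 was the highest KO-labelled library in 10 and control replicate 4 the highest control in 8.

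**Figure D4:**
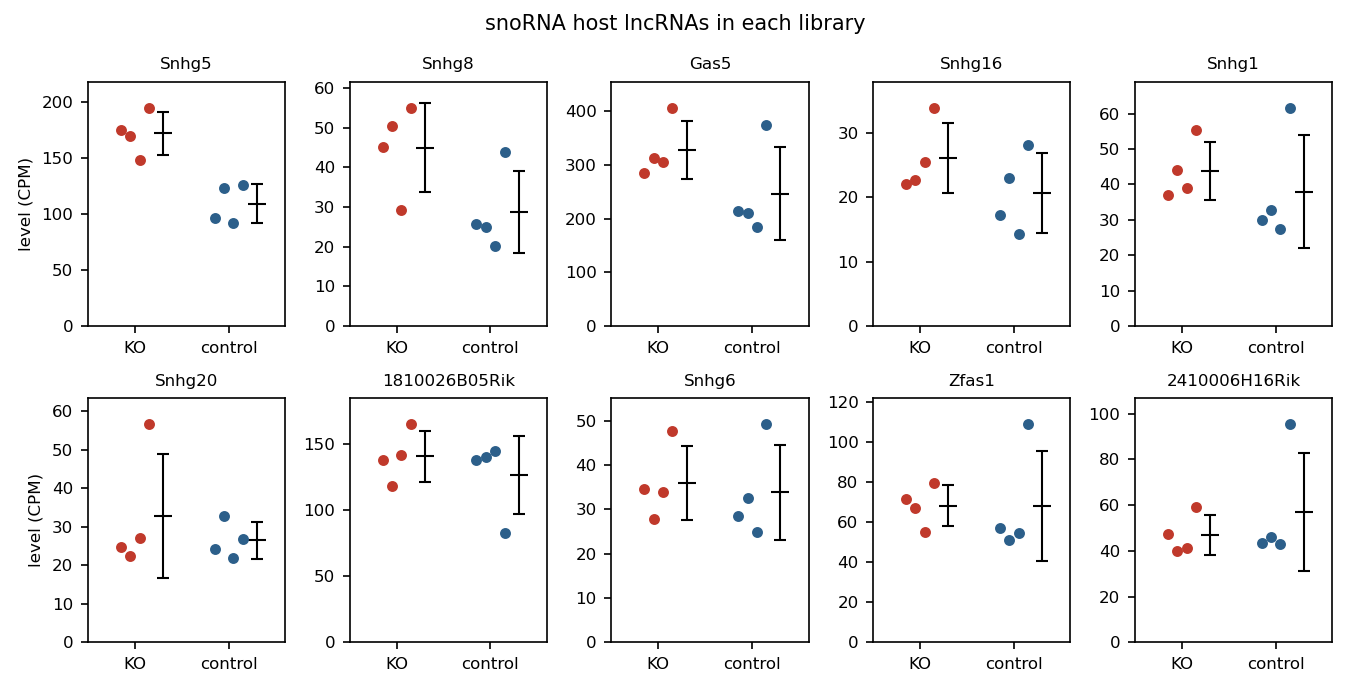
Level (CPM, vertical axes from 0) of the 10 lncRNAs listed as snoRNA hosts in each library, KO-labelled on the left and control on the right, replicates 1 to 4 from left to right, with the mean ± SD of 4 libraries in black. Snhg5 is the only panel without overlap, and replicate 4 of each group is the highest point in most panels. No snoRNA gene is annotated inside 1810026B05Rik.

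The wider list of hosts gave 20 tested genes with a median log2 change of 0.19, of which 14 were above 0 and 1 passed, Snhg5. The 13 snoRNP proteins, which bind snoRNAs into working particles, had a median of -0.11, and none passed by limma, with 1 at an unadjusted p below 0.05. The 14 factors of nonsense-mediated decay, the pathway that degrades many spliced host RNAs, had a median of 0.12, and none passed, with 4 at an unadjusted p below 0.05. The 15 tested genes of the nuclear exosome and RNA 3′ processing had a median of -0.03, and none passed, with 1 at an unadjusted p below 0.05. Among all tested genes, 19.3% fell under that unadjusted limit. By annotation, with entries that carry a miRNA name left out, 8 lncRNAs of the set hold a snoRNA gene on their own strand. Of these, 2 passed, AA465934 and Snhg5, 7 had a log2 change above 0, and their median was 0.36. Over all tested genes, 3.53% passed and 45.2% were above 0. Left out of this count was AI506816, which holds Mir3096, an entry typed as snoRNA in the annotation. Its log2 change was -1.07 (limma adjusted p = 0.0916).

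Of the miRNA host list, Mir181a-1hg fell and 6 other tested genes did not pass. Dleu2, which spans miR-15a and miR-16-1 on the minus strand at chr14:61602839-61682373, had 383, 312, 291 and 243 CPM in the KO-labelled libraries, against 279, 280, 272 and 205 CPM in the controls. KO replicate 4 lay below 3 of the controls, and control replicate 4 was the lowest of all. The log2 change was 0.24 ± 0.16 (SE; limma adjusted p = 0.438). Mirt1, listed there for its symbol, averaged 250 ± 12.8 CPM in the KO-labelled libraries and 242 ± 63.1 CPM in the controls (limma adjusted p = 0.830). Of the 12 tested miRNA processing genes, such as Drosha at 36.2 ± 4.83 CPM in the KO-labelled libraries and 45.0 ± 5.83 CPM in the controls, none passed by limma, 1 had an unadjusted p below 0.05, and the median log2 change was 0.00. The share of all tested genes at an unadjusted p below 0.05 was 19.3%. Kcnq1ot1 was the single lncRNA of the set on the imprinted list, where none of the 6 tested genes passed by limma, with 0 at an unadjusted p below 0.05, and the median was 0.03.

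Neighbouring genes were examined around the 9 changed lncRNAs with a place in the annotation. Within 100000 bases there were 50 pairs of a changed lncRNA and a tested neighbour, with Gm20388 counted under both Gm42047 and Gm4316. In 2 pairs the neighbour passed, both lower in the KO-labelled libraries. This is close to the share over all tested genes, of which 3.53% passed and 2.32% were lower, so the values below describe these 2 genes and nothing particular to the neighbourhoods. Klhdc4, a kelch-domain gene, starts 3678 bases from Gm42047 and is transcribed away from it. It had 32.3, 30.7, 34.0 and 31.3 CPM in the KO-labelled libraries, against 50.2, 49.0, 51.2 and 71.7 CPM in the controls. The groups were well apart, and the log2 change was -0.76 ± 0.14 (SE; limma adjusted p = 0.0188). Without KO replicate 1, 2 or 4 or control replicate 1 it did not pass (adjusted p up to 0.0735). Katnal1, which encodes a relative of the microtubule-severing katanin, lies near Gm15411 and had 3.82, 2.50, 3.34 and 3.74 CPM in the KO-labelled libraries, against 11.6, 12.7, 9.84 and 8.20 CPM in the controls. Its log2 change was -1.41 ± 0.20 (SE; limma adjusted p = 0.00668), and it passed under all 17 alternatives. The other 7 changed lncRNAs had no neighbour that passed.

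A start within 1000 bases of a protein-coding start was annotated for 26 lncRNAs. In 22 of these pairs the coding gene was tested; the signs of both changes matched in 9 pairs, and none of these lncRNAs is among the 10 that changed. Against 3.53% of all tested genes, the coding gene passed in 1 of the 22 pairs. This was Brip1, a DNA repair helicase gene that starts 177 bases from Brip1os, at 8.58 ± 0.189 CPM in the KO-labelled libraries and 19.7 ± 6.79 CPM in the controls (SD, n = 4 each; limma log2 change -1.05, adjusted p = 0.0283).

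The largest changes that did not pass included Gm28942, with 46.9, 69.9, 41.3 and 68.2 CPM in the KO-labelled libraries against 32.0, 31.9, 16.4 and 36.2 CPM in the controls. The groups did not overlap, yet the adjusted p was 0.0643 (limma; log2 change 0.96 ± 0.25, SE). 4930417O13Rik had 33.5, 45.9, 32.1 and 41.9 CPM in the KO-labelled libraries, against 21.7, 32.1, 18.9 and 10.7 CPM in the controls (limma log2 change 0.93 ± 0.27, adjusted p = 0.0858). AI506816 had 25.7, 30.4, 58.8 and 33.2 CPM in the KO-labelled libraries, against 74.2, 45.8, 67.0 and 139 CPM in the controls. KO replicate 3 overlapped the controls there, and the log2 change was -1.07 ± 0.32 (SE; limma adjusted p = 0.0916). Each of these passed under at least 1 alternative, AI506816 and 4930417O13Rik without control replicate 2, and Gm28942 without control replicate 4.

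Further down the order of levels, AI662270 averaged 383 ± 27.0 CPM in the KO-labelled libraries and 321 ± 48.6 CPM in the controls, and 2010016I18Rik averaged 314 ± 18.9 CPM in the KO-labelled libraries and 263 ± 72.7 CPM in the controls. Neither passed, with limma adjusted p-values of 0.297 and 0.365. Gm10076, Gm15340, Gm15513 and Gm22146, which were high per kilobase, had log2 changes of 0.05, 0.09, 0.01 and 0.10. The 84 lncRNAs not named by rule had log2 changes between -0.84 and 0.75 with a median of 0.11, at mean levels of 22.0 to 228 CPM.

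Control replicate 4 differed from the other controls across the set. It was the lowest control in 85 of the 126 lncRNAs, 67.5%, against 40.4% of all tested genes. Mki67, a marker of dividing cells, was at 71.0, 66.9, 113 and 55.3 CPM in the KO-labelled libraries, against 362 CPM in control replicate 4 and 129 to 273 CPM in the other 3 controls. Cdk1, a cell cycle kinase gene, was at 19.2 to 37.7 CPM in the KO-labelled libraries and at 110 CPM in control replicate 4, the highest of the controls. The part of cell division in the levels of these lncRNAs was not tested. Without control replicate 4, 17 lncRNAs passed, 8 higher and 9 lower, while the share of all tested genes that passed was 4.84%, against 3.53% with all libraries. The 17 included Gas5, Snhg8, Gm28942, Gm45606, AW112010, 2610035D17Rik and 1810059H22Rik beside the 10 described above.

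**Figure D5:**
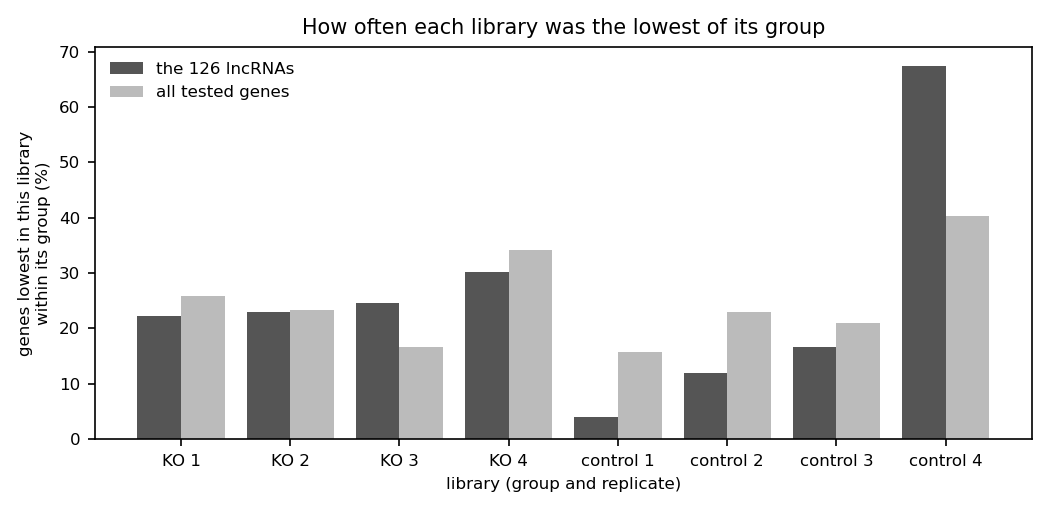
Share of genes (%, vertical axis from 0) for which each library was the lowest of its group of 4, for the 126 lncRNAs (dark bars) and all 13840 tested genes (light bars), KO-labelled libraries on the left. Control replicate 4 reaches 67.5% of the lncRNAs and 40.4% of all tested genes.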

How the data were processed

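RNA-seq of total RNA from sorted T-ALL blasts was analysed in 8 libraries made with the SMARTer Ultra Low kit, per the labels' protocols. STAR 2.7.3a, Partek 10.0.22.0524 and build mm10 are named in the submitters' processing notes; which program counted genes, with which strand setting and annotation, is not given in the sources used here. Deposited values are the authors' CPM per gene with 0.0001 added to each value, which was subtracted. The signed fold score of the authors' deposited list was copied as deposited. Whole reads could not be recovered (62.1 to 66.7% of values were whole within 0.02 reads), so no count model was used. A gene was tested where 4 or more of the 8 libraries had 1 CPM or more, with limma 3.58.1 in R 4.3.3 (log2(CPM + 1), intensity trend, KO minus control, two-sided, Benjamini-Hochberg); fold changes of low genes are understated on this scale. The steps were checked on simulated data. Alternatives were 2 other pseudocounts, 2 filters, 3 scalings, array weights, a replicate block and leaving out each library.

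The lncRNAs, gene lists, tests and alternatives were chosen with earlier results of these data known. Named lncRNAs were all that passed, the 10 highest by CPM and by CPM per kb, the 6 highest and 6 lowest changes, those in the host, nuclear and imprinted lists, and the 3 nearest the threshold on each side. Brip1os, Brip1, Gm45606, AW112010, 1810059H22Rik and 0610009E02Rik were named after their values were seen. Intervals on reads cover counting error only.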

Additional observations from a re-analysis of the deposited data

Results flagged for a closer look

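Within groups of 4 libraries, 94 groups were examined for a single library whose gap to the nearest other, as a share of the group's range, exceeded Dixon's 95% critical value, which chance exceeds in about 1 of 20 groups. This was so in 16.

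Control replicate 4 was the library that stood apart in 9 of them. It was the lowest control for 1810026B05Rik at 82.8 CPM (others 138 to 145), Dleu2 at 205 CPM (others 272 to 280), Mirt1 at 147 CPM (others 267 to 277) and Tug1 at 417 CPM (others 553 to 576). It was also the lowest for the sum of the 122 lncRNAs other than Malat1 and the rRNA-related loci, at 7916 CPM (others 9561 to 9861). For snoRNA hosts it was the highest control, with 2410006H16Rik at 95.4 CPM (others 43.0 to 46.2), Gas5 at 375 CPM (others 184 to 215), Snhg1 at 61.7 CPM (others 27.5 to 32.8) and Zfas1 at 109 CPM (others 51.3 to 57.1).

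KO replicate 4 stood above the other KO-labelled libraries for AA465934 at 68.0 CPM (others 35.0 to 39.1), Gm10076 at 244 CPM (others 154 to 164), Snhg20 at 56.7 CPM (others 22.5 to 27.1) and the summed snoRNA hosts at 1155 CPM (others 846 to 882). For Gm29125, KO replicate 2 was high at 64.4 CPM (others 35.5 to 38.3), and so was control replicate 2 at 41.4 CPM (others 19.5 to 22.1). Control replicate 2 was also the highest for Gm15708 at 272 CPM (others 226 to 233).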

How the results depend on the processing

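Of the 126 lncRNAs, 10 passed with pseudocounts of 0.5 and 5, with no or a stricter filter and with 3 other scalings; 23 passed with array weights (1313 of all genes, against 488) and 15 with the replicate block (509 of all genes). Same-numbered libraries did not all deviate together: for numbers 1 to 4 the correlations were 0.15, 0.07, -0.10 and 0.18 over all tested genes and 0.23, -0.08, 0.17 and 0.15 over the lncRNAs. In each set 1 of 4 numbers correlated best with its own. Not every pair was above 0.1 and the labels name no shared source, so the numbers were not taken as pairs. Leaving out 1 library left 3 to 17 lncRNAs past the test and 81 to 670 of all genes; the lowest counts were without control replicate 1 for the lncRNAs and without KO replicate 2 for all genes. The median log2 change of the set ranged from 0.01 to 0.18. Of all calls over the genome 65.8% were lower in KO, against 55.8% after quantile normalization and 54.2% after median scaling.

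Of 714 values of single lncRNAs under alternatives, 637 kept direction and side of the threshold, 27 lost the call, 14 gained one and 36 changed sign. With array weights the log2 change of 1810026B05Rik was -0.03, 5031425E22Rik -0.06, Gm15340 -0.06, Gm15513 -0.11, Gm4258 -0.15, Mirt1 -0.09 and Neat1 -0.12. With 1 library left out, log2 changes ranged from -0.01 to 0.26 for 1810026B05Rik, -0.32 to 0.07 for 2410006H16Rik, -0.06 to 0.07 for 5031425E22Rik, -0.91 to 0.09 for AY036118, -0.14 to 0.31 for Gm10076, -0.02 to 0.18 for Gm15340, -0.18 to 0.13 for Gm15513, -0.04 to 0.21 for Gm22146, -0.04 to 0.22 for Gm42418, -0.14 to 0.25 for Gm4258, -0.02 to 0.09 for Kcnq1ot1, -0.13 to 0.17 for Mirt1, -0.21 to 0.21 for Neat1, -0.08 to 0.35 for Snhg20, -0.03 to 0.30 for Snhg6 and -0.05 to 0.31 for Zfas1. The cause was not tested. Depth limits a single library to levels of 3 reads, 0.136 to 0.214 CPM.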
